A study of Capra hircus with 6 samples.

Results

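The proteasome genes described here are the 44 rows, of 15944 genes in the deposited count table, whose KEGG annotation names the pathway Proteasome. By role, 15 of them encode the 20S core particle, 19 the 19S cap, 3 the inducible catalytic subunits of the immunoproteasome, 5 the activators and the inhibitor of the core, 1 the assembly factor POMP and 1 the thymus-specific catalytic subunit PSMB11. All 44 symbols matched goat RefSeq genes, with SEM1 listed under its older symbol SHFM1.

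The proteasome is the barrel-shaped protease that degrades most ubiquitin-tagged proteins of the nucleus and cytosol. The alpha rings of the 20S core gate its entrance, the beta rings carry the cutting sites in PSMB5, PSMB6 and PSMB7, and the 19S cap binds, unfolds and feeds in tagged substrates. Interferon signaling is known to replace the constitutive cutting subunits with PSMB8, PSMB9 and PSMB10 and to raise the activator PA28 (PSME1 with PSME2), and in this form the proteasome produces peptides for MHC class I. The constitutive genes are known to be raised together by the transcription factor NFE2L1 when proteasome activity is short.

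RNA-seq was performed on dermal papilla cells of secondary hair follicles (SHF-DPCs), the mesenchymal cells at the base of the follicles that grow cashmere, from Capra hircus. The control group (3 libraries) was cultured without all-trans retinoic acid (ATRA), the vitamin A metabolite that binds retinoic acid receptors, and the ATRA-treated group (3 libraries) with ATRA at 100 µM for 24 h. All 6 are labelled as wild type primary cultures from skin and as batch 1, and the methods give 3 animals as the source of the cells. The labels name no vehicle for the control cells. For the viability assay, the methods state that ATRA was made up in complete medium and that controls were given medium of equal volume. The methods describe the goats as healthy adults, 3 years of age. Neither source says whether control and ATRA libraries of the same number share an animal, and p-values measure the spread among these 3 cultures per group.

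The libraries held 36887160 to 38012771 counts in the control group against 35532339 to 36870939 in the ATRA-treated group. Levels are read counts divided by the TMM-scaled library total (CPM), and a log₂FC is ATRA over control from edgeR's quasi-likelihood test, with p-values adjusted over all 12588 genes tested. A value in parentheses after a gene is its log₂FC by TMM scaling unless stated otherwise. The TMM factors averaged 0.847 and 1.18 in the groups, so scaling by library size only raised every log₂FC, with a shift of 0.48 in the median over all genes. Mesenchymal markers were present, with 9 of 9 tested (VCAN, COL1A1 and ACTA2 among them) lower with ATRA (7 by library size only), and their summed level was 60717 to 63142 CPM in the control libraries and 2655 to 2764 CPM in the ATRA libraries. Over all genes, 38.7% were lower (22.7% by library size only). From the same list, the dermal papilla markers VCAN, LEF1 and WIF1 averaged 1641, 16.1 and 2.87 CPM in the control group. In the ATRA-treated group they averaged 32.4, 11.1 and 0.148 CPM. CORIN, ALPL, PROM1 and SOX2, also on the list, were at most 0.363 CPM in every library. In bulk samples, fewer cells of a type and less RNA per cell cannot be told apart.

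Of the 44 proteasome genes, 43 passed the expression filter. PSMB11 did not, with no counts in the control libraries and 0, 2 and 1 counts in the ATRA libraries. At an adjusted p under 0.05, 9 of the 43 were higher with ATRA and 23 were lower, while 11 were not called. As shares these were 20.9% and 53.5% of the members tested, beside 40.9% higher and 38.7% lower over all genes. Their median log₂FC was -0.17, beside 0.04 for all genes. The changes were small for these cells: the median absolute log₂FC was 0.24 over the members and 0.59 over all genes tested.

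The balance of directions depended on the scaling. By library size only, 31 members were higher and 6 lower (62.9% and 22.7% of all genes), and the median log₂FC was 0.31 over the members and 0.52 over all genes. The sign differed between the scalings for 19 of the 43 members, and for 16 of the 34 subunits of the core and the cap. Of these 34, 8 were called higher under both scalings, and PSMC3 and PSMA7 were called lower under both. Under both scalings the members' median lay below that of all genes. The 44 genes took 0.430% ± 0.0138 of the counts in the control group against 0.542% ± 0.0234 in the ATRA-treated group (SD, n = 3 each).

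At the study's thresholds for a differentially expressed gene (|log₂FC| above 1 with an unadjusted p under 0.05), 0 members were higher in edgeR and in DESeq2, and 4 were lower in both, namely PSMB8, PSMB9, PSME1 and PSME2. The background at these thresholds was 13.7% higher and 17.3% lower. All 4 belong to the interferon-inducible set, and none is a subunit of the constitutive core or cap. PSME2 lay just past the threshold: its log₂FC was -0.92 without ATRA replicate 2, and by library size only PSME1 (-0.91) and PSME2 (-0.56) fell short of it while PSMD12 (1.00) passed. The count of lower members was 3 with upper-quartile scaling, where PSME2 was -0.96, 3 with R's t.test function, where PSMB9 was -0.80 on the log₂(CPM + 1) scale, and 3 with a filter of 1 CPM in 3 libraries, which left PSMB9 out.

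**Figure D1:**
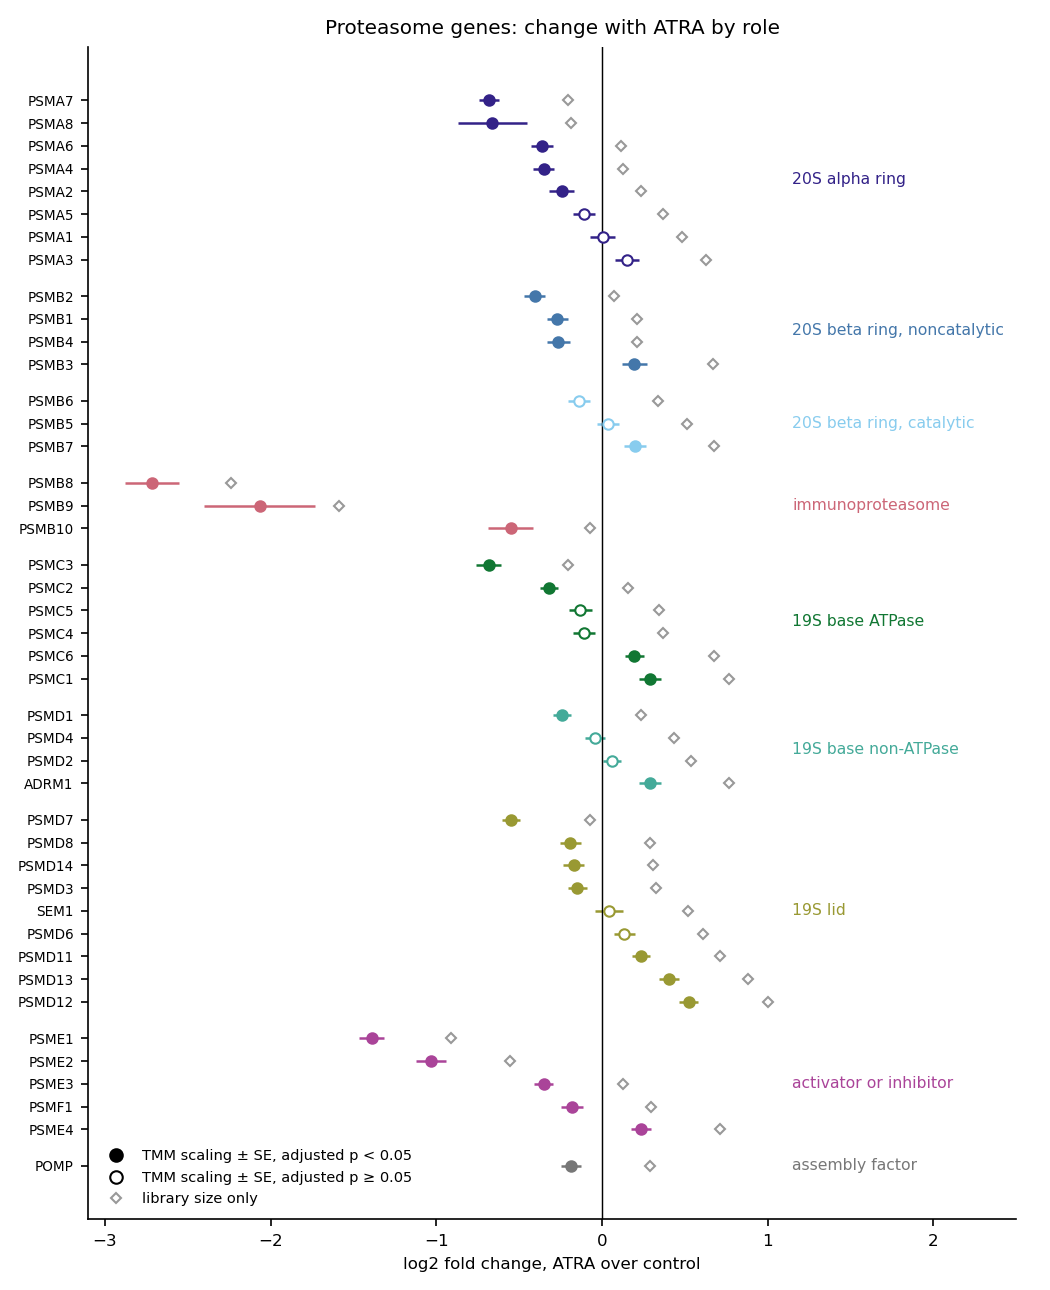
Change of the 43 tested proteasome genes, grouped by role. The x axis is the log₂ fold change of ATRA over control; circles with bars are the TMM-scaled value ± SE (filled where adjusted p < 0.05) and open diamonds are the value by library size only. The circles of PSMB8, PSMB9, PSME1 and PSME2 lie left of -1, and those of the 20S core and 19S cap subunits lie between -0.68 and 0.52. The diamonds of PSME1 (-0.91) and PSME2 (-0.56) lie right of -1, and that of PSMD12 is at 1.00.

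Of all the members, the immunoproteasome subunits PSMB8 and PSMB9 had the largest decreases, and PSMB10 fell less. PSMB8 (LMP7), the inducible counterpart of PSMB5, was at 8.54, 7.94 and 8.22 CPM in the control libraries and 1.25, 1.47 and 1.01 CPM in the ATRA libraries. It was thus 6.58-fold lower with ATRA (log₂FC -2.72, SE 0.162, adjusted p = 2.03e-11), and the groups lay far apart. The mean level was 8.23 ± 0.297 CPM in the control group against 1.25 ± 0.229 CPM in the ATRA-treated group (SD, n = 3 each).

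PSMB9 (LMP2), the counterpart of PSMB6, was the least counted of the 43, with 37, 37 and 45 counts in the control libraries and 8, 19 and 11 in the ATRA libraries. As levels these were 1.19, 1.14 and 1.40 CPM in the control libraries and 0.185, 0.431 and 0.266 CPM in the ATRA libraries. The groups did not overlap, and the change was log₂FC -2.07, SE 0.337, adjusted p = 1.95e-05. PSMB10 (MECL-1), the counterpart of PSMB7, was at 8.02, 8.53 and 6.57 CPM in the control libraries and 5.95, 4.65 and 5.20 CPM in the ATRA libraries. Its fall was smaller (log₂FC -0.55, SE 0.137, adjusted p = 0.00129), the lowest control library was close to the highest ATRA library, and by library size only it was -0.07 and was not called (adjusted p = 0.627).

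Summed over the 3 genes, the immunoproteasome level was 17.8, 17.6 and 16.2 CPM in the control libraries and 7.38, 6.55 and 6.48 CPM in the ATRA libraries. The log₂ difference was -1.34 (p = 0.1 by an exact permutation test, two-sided, which is the floor for 3 libraries against 3) and -0.86 by library size only.

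Ratios within a library, which no scaling factor enters, gave the same direction for all 3 pairs. They are ratios of counts and not of transcripts per length, so only their change is read. For each 1000 counts of PSMB5, PSMB8 had 66.9, 59.5 and 70.5 in the control libraries and 9.55, 12.5 and 7.49 in the ATRA libraries. That is a 6.79-fold lower ratio with ATRA, and the log₂ change was -2.76. PSMB9 per 1000 counts of PSMB6 was 11.7, 10.9 and 14.6 in the control libraries and 2.02, 5.26 and 2.87 in the ATRA libraries, a log₂ change of -1.98. PSMB10 per 1000 counts of PSMB7 was 67.7, 70.3 and 60.5 in the control libraries and 44.4, 38.3 and 35.9 in the ATRA libraries, a log₂ change of -0.75. None of the 3 ratios overlapped between the groups, and each had p = 0.1 in the exact permutation test. Most single genes did not overlap either, with 41.2% of those tested above and 39% below by CPM. No such share was taken over ratios, so nothing is read from the lack of overlap. All 3 immunoproteasome genes together had 10.4 ± 0.162 counts per 1000 counts of the 20S core in the control group against 4.66 ± 0.438 in the ATRA-treated group (SD, n = 3 each).

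**Figure D2:**
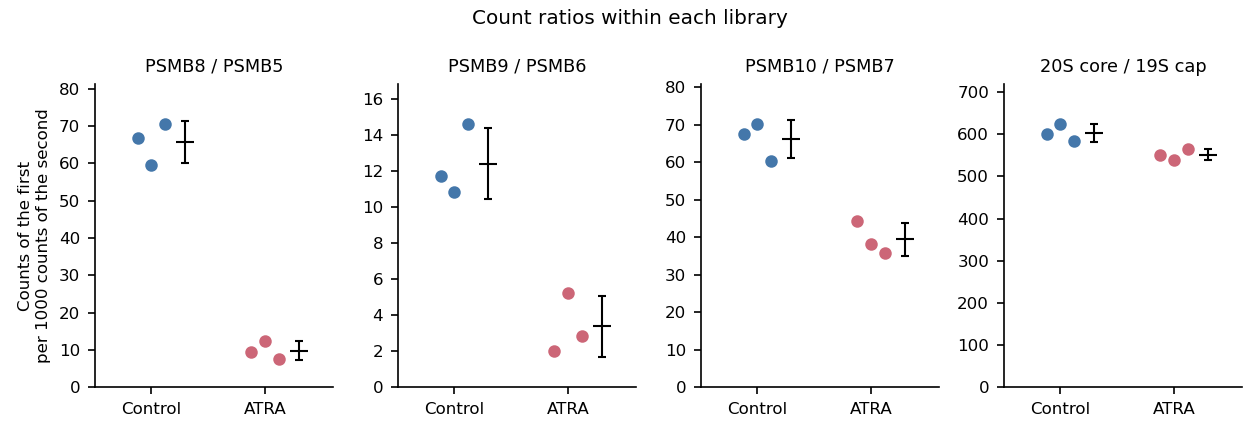
Count ratios within each library. Each point is a library and the bar beside it is the group mean ± SD (n = 3), and the y axis of each panel starts at 0 and gives the counts of the first gene or set per 1000 counts of the second. The PSMB8 to PSMB5 ratio ranges from 59.5 to 70.5 in the control libraries and from 7.49 to 12.5 in the ATRA libraries, and the 20S to 19S ratio from 583 to 624 and from 539.7 to 565.

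Leukocytes express the immunoproteasome constitutively, so their markers were examined beside it. Of 10 leukocyte markers, 8 were matched by name and 4 were tested. CD14 (2.18) and CD68 (1.41) were higher with ATRA, while CORO1A (-5.55) and LAPTM5 (-1.33) were lower at levels of at most 1.76 CPM. The markers CD3E, CSF1R, TYROBP and LCP1, which did not pass the expression filter, were at most 0.162 CPM in every library. PTPRC and CD79A were not matched by name. Summed, the matched markers were at 11.5 to 14.1 CPM in the control libraries and 41.5 to 44.7 CPM in the ATRA libraries, most of it from CD14 and CD68. The part of these markers in these results was not tested.

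The activators differed in the size and direction of their changes. PSME1 (PA28α) was at 198, 197 and 177 CPM in the control libraries and 75.8, 64.1 and 78.6 CPM in the ATRA libraries. PSME2 (PA28β), its partner in the heptameric ring, was at 62.4, 60.5 and 56.4 CPM in the control libraries and 32.3, 24.3 and 31.1 CPM in the ATRA libraries. Both fell in every ATRA library: PSME1 was 2.62-fold lower (log₂FC -1.39, SE 0.0734, adjusted p = 3.62e-12) and PSME2 2.05-fold lower (log₂FC -1.03, SE 0.0911, adjusted p = 8.88e-09), and both stayed lower and called by library size only. Within the ATRA-treated group, replicate 2 was the lowest for both.

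PSME3 (PA28γ), the nuclear activator that is not part of the interferon-inducible pair, was at 134, 139.6 and 141 CPM in the control libraries and 109, 104 and 112 CPM in the ATRA libraries. Its groups did not overlap and it was lower by a smaller amount (log₂FC -0.35, SE 0.0566, adjusted p = 1.71e-05), but by library size only it was higher (0.13, adjusted p = 0.0409). PSME4 (PA200), a large single-chain activator, was at 113, 115 and 127 CPM in the control libraries and 133, 145 and 138 CPM in the ATRA libraries. It was higher with ATRA (log₂FC 0.23, SE 0.0609, adjusted p = 0.00192), also by library size only (0.71).

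PSMF1 (PI31), described as an inhibitor of the core, was at 46.7, 46.5 and 49.7 CPM in the control libraries and 41.5, 42.0 and 42.6 CPM in the ATRA libraries. The change was log₂FC -0.18, SE 0.0654, adjusted p = 0.0175, with a value of -0.16 (adjusted p = 0.0753) without Control replicate 3, of -0.10 (adjusted p = 0.146) with upper-quartile scaling and of 0.30 by library size only. Summed, PSME1 and PSME2 changed by -1.30 and PSME3 and PSME4 by -0.05 on the log₂ scale (exact permutation test, p = 0.1 and p = 0.3), a division of the 4 activators that was chosen after seeing the data. For all 4 the difference was -0.54 (exact permutation test, p = 0.1), and -0.06 by library size only.

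**Figure D3:**
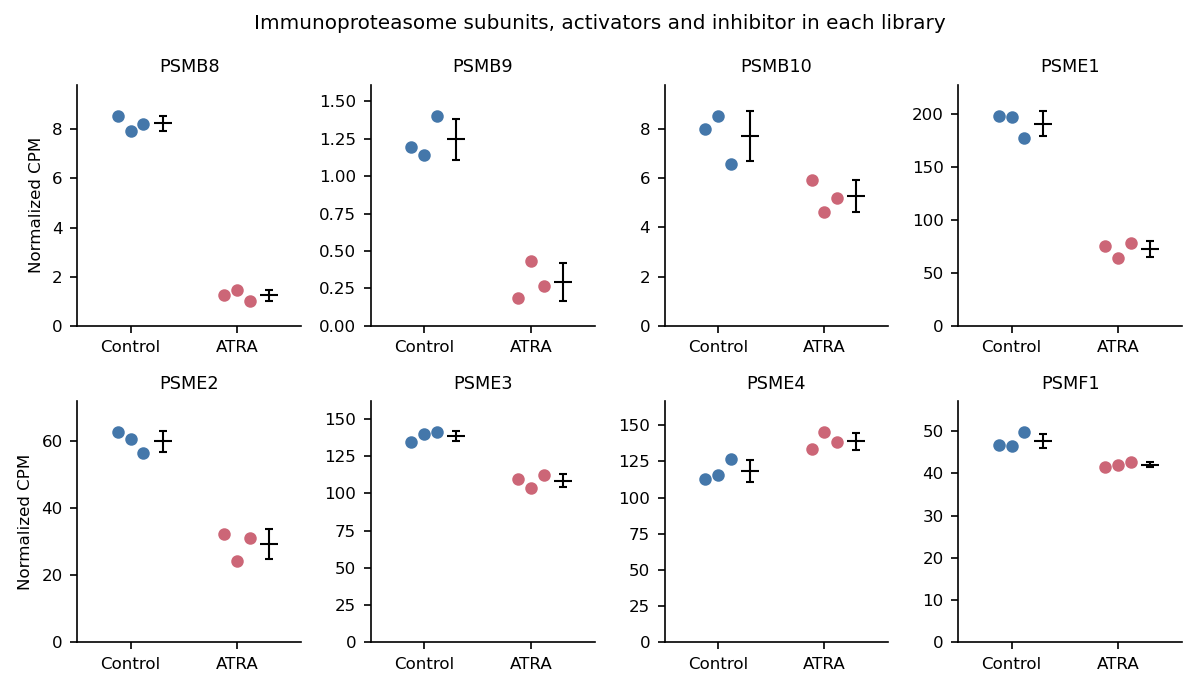
TMM-normalized CPM of the immunoproteasome subunits, the activators and the inhibitor PSMF1. Each point is a library, the bar beside it is the group mean ± SD (n = 3), and every y axis starts at 0. Control and ATRA libraries do not overlap in any of the 8 panels, as for most genes tested, of which 41.2% lie above and 39% below by the same measure. PSMB8 is at 7.94 to 8.54 CPM in the control libraries and 1.01 to 1.47 CPM in the ATRA libraries, and PSME4 is the one gene of the 8 that is higher with ATRA on this scale, while by library size only PSME3 (log₂FC 0.13) and PSMF1 (0.30) are above 0 too.

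In the 20S core, 2 of the 15 genes were higher and 8 lower, beside 40.9% and 38.7% of all genes. The median log₂FC of the 15 was -0.24. By library size only these 15 genes counted 10 higher and 1 lower, beside 62.9% and 22.7% of all genes. The constitutive catalytic subunits had log₂FC near 0 with TMM scaling, while by library size only all 3 were called higher. PSMB5, which carries the chymotrypsin-like site, was at 128, 134 and 117 CPM in the control libraries and 132, 118 and 137 CPM in the ATRA libraries. PSMB6, with the caspase-like site, was at 103, 107 and 96.8 CPM in the control libraries and 97.2, 84.0 and 96.7 CPM in the ATRA libraries. PSMB7, with the trypsin-like site, was at 119, 122 and 109 CPM in the control libraries and 134, 122 and 145 CPM in the ATRA libraries. The groups overlapped for PSMB5 and PSMB6 and barely separated for PSMB7. PSMB5 (0.03, adjusted p = 0.641) and PSMB6 (-0.14, adjusted p = 0.0620) were not called, and PSMB7 rose (log₂FC 0.20, SE 0.0677, adjusted p = 0.0117). By library size only the log₂FC was 0.51 for PSMB5 (adjusted p = 2.13e-06), 0.34 for PSMB6 (adjusted p = 0.000162) and 0.68 for PSMB7 (adjusted p = 8.52e-08).

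These calls were close to the threshold. PSMB7 was not called without Control replicate 3 (0.15, adjusted p = 0.0913) or without ATRA replicate 3 (0.13, adjusted p = 0.123). PSMB6 was called lower (-0.18) without Control replicate 3, ATRA replicate 1 or ATRA replicate 3, and by DESeq2 (-0.16).

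Of the 8 alpha ring genes, 0 were higher by edgeR or DESeq2 at an adjusted p under 0.05 and 5 were lower, against 4 higher and 1 lower by library size only. Shares over all genes were 40.9% and 38.7% by edgeR with TMM, and 62.9% and 22.7% by library size only. PSMA7 had the lowest log₂FC of the ring and was at 212, 208 and 195 CPM in the control libraries and 129, 117 and 137 CPM in the ATRA libraries. It fell in every ATRA library (log₂FC -0.68, SE 0.0628, adjusted p = 1.23e-08) and was also called lower by library size only (-0.20, adjusted p = 0.00488). PSMA3 had the highest and was at 97.4, 103 and 87.3 CPM in the control libraries and 110.1, 95.8 and 114 CPM in the ATRA libraries. Its groups overlapped and it was not called (log₂FC 0.15, SE 0.0734, adjusted p = 0.0670), though it was without Control replicate 2 (0.20) or ATRA replicate 2 (0.21). Between them lay PSMA6 (-0.36), PSMA4 (-0.35) and PSMA2 (-0.24), which were called lower, and PSMA5 (-0.11) and PSMA1 (0.00), which were not. By library size only PSMA6 (0.12) and PSMA4 (0.13) were above 0 and not called. PSMA2 (0.23), PSMA5 (0.37), PSMA1 (0.48) and PSMA3 (0.63) were called higher on that scale. PSMA2 was not called without Control replicate 2 (-0.17, adjusted p = 0.0555).

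PSMA8, the testis-type alternative to PSMA7, was at 2.71 to 3.74 CPM in the control libraries and 1.504 to 2.49 CPM in the ATRA libraries (log₂FC -0.66). It was not called without Control replicate 1 (-0.53, adjusted p = 0.0508) or by library size only (-0.19, adjusted p = 0.412). Its value is uncertain, because it is a close paralog of PSMA7 and the handling of shared reads is not known. It also overlaps SS18 in the annotation.

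Of the 4 beta subunits without a cutting site, PSMB2 (-0.41), PSMB1 (-0.27) and PSMB4 (-0.26) were lower and PSMB3 (0.20) was higher, while by library size only all 4 were above 0. PSMB2 was at 110.3, 106 and 100.1 CPM in the control libraries and 83.2, 74.7 and 81.4 CPM in the ATRA libraries. PSMB3 was at 80.1, 83.0 and 72.4 CPM in the control libraries and 90.3, 79.9 and 99.7 CPM in the ATRA libraries. PSMB2 separated the groups (log₂FC -0.41, SE 0.0629, adjusted p = 1.08e-05), whereas PSMB3 overlapped between them (log₂FC 0.20, SE 0.0768, adjusted p = 0.0265). PSMB3 was not called without Control replicate 1, Control replicate 3, ATRA replicate 1 or ATRA replicate 3 (log₂FC 0.11 to 0.20, adjusted p up to 0.232), nor by DESeq2 (0.17, adjusted p = 0.0558).

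Summed over its 15 genes, the 20S core was at 1694, 1734 and 1559.6 CPM in the control libraries and 1489, 1350.5 and 1559.7 CPM in the ATRA libraries. The groups overlapped (log₂ difference -0.18, exact permutation test, p = 0.2), and the difference was 0.30 by library size only.

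In the 19S cap, 6 of 19 genes were higher and 7 lower, beside 40.9% and 38.7% of all genes. The median log₂FC of the 19 was -0.04. By library size only, 17 were higher and 1 was lower, beside 62.9% and 22.7% of all genes. Of the 6 ATPases of the base, the ring that unfolds substrates, PSMC1 and PSMC6 (0.20) were higher, PSMC3 and PSMC2 (-0.32, and 0.16 by library size only) were lower, and PSMC5 (-0.13) and PSMC4 (-0.11) were not called. PSMC3 (Rpt5) was at 207, 208 and 188 CPM in the control libraries and 127, 110.0 and 138 CPM in the ATRA libraries. PSMC1 (Rpt2) was at 155, 143 and 142 CPM in the control libraries and 193, 162 and 182 CPM in the ATRA libraries. Neither gene overlapped between the groups, so subunits of the same ring moved in opposite directions: PSMC3 fell (log₂FC -0.68, SE 0.0732, adjusted p = 1.19e-07) under both scalings and PSMC1 rose (log₂FC 0.29, SE 0.0653, adjusted p = 0.000548) under both. PSMC5 was called lower without Control replicate 3 (-0.18) or ATRA replicate 3 (-0.19).

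Among the 4 other base subunits, the ubiquitin receptor ADRM1 (Rpn13) was higher (log₂FC 0.29, SE 0.0649, adjusted p = 0.000543) and the scaffold PSMD1 (Rpn2) was lower (log₂FC -0.24, SE 0.0552, adjusted p = 0.000619), a sign that turned by library size only (0.24). The second scaffold PSMD2 (Rpn1) and the receptor PSMD4 (Rpn10) were not called, at 0.06 and -0.04.

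The 9 lid genes had 3 higher and 4 lower, against 8 and 0 by library size only and 4 and 1 with upper-quartile scaling. Shares over all genes were 40.9% and 38.7% by TMM, and 62.9% and 22.7% by library size only. With upper-quartile scaling, 5642 of the 12588 genes tested were higher and 4505 lower. PSMD12 (Rpn5) had the highest log₂FC of all members and was at 73.1, 70.2 and 72.4 CPM in the control libraries and 104, 103 and 103 CPM in the ATRA libraries. PSMD7 (Rpn8), the partner of the deubiquitinase PSMD14, had the lowest of the lid and was at 169, 176 and 171 CPM in the control libraries and 118, 113 and 122 CPM in the ATRA libraries. The groups were far apart for both (PSMD12: log₂FC 0.52, SE 0.0567, adjusted p = 1.15e-07, and PSMD7: log₂FC -0.55, SE 0.0553, adjusted p = 4.05e-08), but by library size only PSMD7 was -0.07 and not called. PSMD13 (Rpn9, 0.40) and PSMD11 (Rpn6, 0.24) rose with PSMD12. PSMD8 (-0.19), PSMD14 (-0.17) and PSMD3 (-0.15) were lower, with the opposite sign by library size only, and PSMD6 (0.13) and SEM1 (0.04) were not called.

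The 3 small decreases in the lid each lost their call when 1 control library was left out. PSMD8 (-0.15) and PSMD3 (-0.12) were not called without Control replicate 1, nor PSMD14 (-0.14) without Control replicate 2, and none of the 3 was called with upper-quartile scaling. PSMD6 was called higher without Control replicate 1 (0.17) or ATRA replicate 2 (0.15).

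Summed over 19 genes, the 19S cap was at 2759 ± 75.8 CPM in the control group against 2656 ± 137 CPM in the ATRA-treated group (SD, n = 3 each). The log₂ difference was -0.06 (exact permutation test, p = 0.4) and 0.42 by library size only. Counts of the core per 1000 counts of the cap, which no scaling enters, were 600.0, 624 and 583 in the control libraries and 550.4, 539.7 and 565 in the ATRA libraries. The ratio was thus lower by a small amount in every ATRA library, with means of 602 ± 20.6 and 552 ± 12.5 (SD, n = 3 each) and p = 0.1 in the exact permutation test.

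To compare subunits without a scaling factor, each of the 34 core and cap genes was also set against the geometric mean of all 34 in the same library, an alternative chosen after seeing the data. On this measure 13 genes were higher in every ATRA library than in every control library, 12 were lower in every one, and 9 overlapped. Over all genes tested that had a count in every library, 44.3% lay above and 33.2% below by the same measure. Centring on the mean of the 34 fixes their counts near balance, so nothing is read from those counts. PSMD12 (0.62), PSMD13 (0.50), PSMC1 (0.39), ADRM1 (0.39) and PSMD11 (0.34) rose most relative to the complex, as log₂ differences. PSMC3 (-0.59), PSMA7 (-0.58), PSMA8 (-0.58) and PSMD7 (-0.45) fell most. Since the mean of all 34 is 0 by construction, only the order of the genes is read. Against the same mean, PSMB8 was -2.64, PSMB9 -2.07, PSME1 -1.30 and PSME2 -0.94, each beyond any of the 34.

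**Figure D4:**
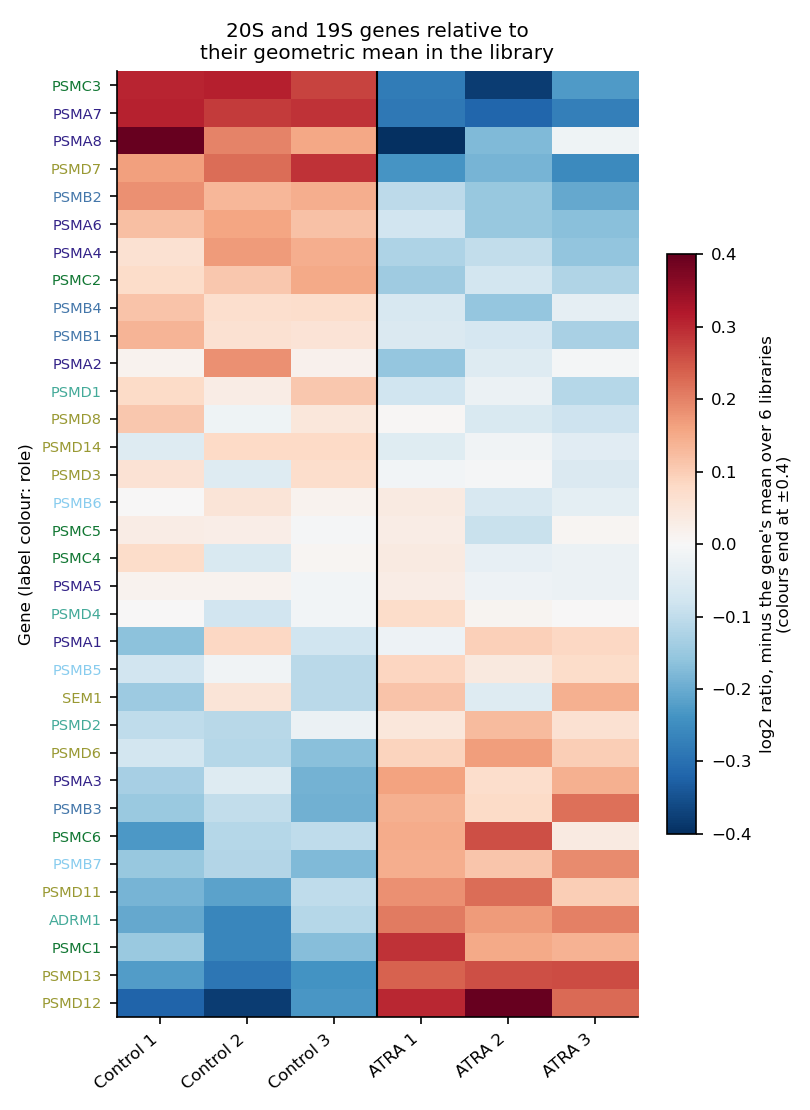
Level of each 20S and 19S gene relative to the geometric mean of the 34 in the same library, on a log₂ scale and centred on the gene's mean over the 6 libraries. Red is above and blue below that mean, colours end at ±0.4, rows are ordered by the difference between the groups, and the colour of a name gives its role as in the plot of change by role. PSMC3 and PSMA7 at the top are above their mean in the 3 control libraries and below it in the 3 ATRA libraries, and PSMD13 and PSMD12 at the bottom are the opposite.

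POMP, the chaperone that assembles the beta rings, was at 86.7, 93.0 and 84.9 CPM in the control libraries and 80.4, 74.1 and 78.0 CPM in the ATRA libraries. The groups did not overlap (log₂FC -0.19, SE 0.0616, adjusted p = 0.0101), but the sign turned by library size only (0.29) and POMP was not called with upper-quartile scaling (-0.11, adjusted p = 0.111). Of 8 genes for proteasome assembly or nuclear import outside the KEGG pathway, 2 were higher and 4 lower with ATRA, beside 40.9% and 38.7% of all genes. The counts by library size only were 5 and 1, beside 62.9% and 22.7% of all genes. The median log₂FC of the 8 was -0.19. AKIRIN2, which brings assembled proteasomes into the nucleus, had a 1.86-fold higher level (log₂FC 0.90, SE 0.0686, adjusted p = 8.28e-10), at 35.2, 34.5 and 31.0 CPM in the control libraries and 63.2, 61.8 and 62.6 CPM in the ATRA libraries. PSMD10 (gankyrin), a chaperone of the base, was lower (log₂FC -0.95, SE 0.0710, adjusted p = 5.65e-10), at 66.6, 70.3 and 61.3 CPM in the control libraries and 34.6, 32.4 and 35.5 CPM in the ATRA libraries. Both were called under both scalings. The core chaperone PSMG2 was lower by TMM (log₂FC -0.38) and was not called by library size only (0.10). PSMD5 (log₂FC 0.23), a further base chaperone, was higher.

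Of 13 listed enzymes and shuttles that work with the proteasome, 6 were higher and 3 lower, beside 40.9% and 38.7% of all genes. The counts by library size only were 12 and 1, beside 62.9% and 22.7% of all genes. The median log₂FC of the 13 was 0.07. ZFAND2A (AIRAP), a stress-inducible protein that binds the 19S cap, had the largest change in the list (log₂FC 1.76, SE 0.0760, adjusted p = 1.48e-13), at 17.5, 17.0 and 15.6 CPM in the control libraries and 59.6, 54.1 and 56.6 CPM in the ATRA libraries. RAD23B, a shuttle that carries ubiquitinated proteins, fell (log₂FC -0.76, SE 0.0542, adjusted p = 2.88e-10). PITHD1 (0.71) and UBE3C (0.67), a ligase that extends ubiquitin chains at the proteasome, were higher. The cap deubiquitinases USP14 (-0.12) and UCHL5 (-0.21) were near 0, and of them UCHL5 was called lower, though it was 0.27 by library size only.

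Of 11 genes listed for NFE2L1, its processing and its control, MAF and NFY factors included, 6 were higher and 2 lower. The shares over all genes were 40.9% and 38.7%. By library size only these counts were 9 and 2, beside 62.9% and 22.7% of all genes. NFE2L1 itself, the activator of the subunit genes, was at 266, 253 and 256 CPM in the control libraries and 290.1, 308 and 316 CPM in the ATRA libraries. It rose slightly (log₂FC 0.24, SE 0.0556, adjusted p = 0.000797), and by library size only its log₂FC was 0.72. Its small MAF partners rose more, with log₂FC of 1.96 for MAFF, 1.28 for MAFG and 0.93 for MAFK, and so did the ubiquitin ligase SYVN1 (1.13). NFYA was higher (0.86), while NFYC (-1.02) was lower, as was NGLY1 (-0.72), the enzyme that removes glycans from NFE2L1 during its activation. Protein levels and processing of NFE2L1 were not measured here.

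Of 6 ubiquitin and E1 genes, 4 were higher and 1 lower, beside 40.9% and 38.7% of all genes. By library size only these counts were 5 and 0, beside 62.9% and 22.7% of all genes. The polyubiquitin gene UBB was at 661, 631 and 623 CPM in the control libraries and 857, 795 and 892 CPM in the ATRA libraries. Its groups did not overlap, and it rose (log₂FC 0.41, SE 0.0597, adjusted p = 5.24e-06), as did the ribosomal fusion gene RPS27A (0.33). UBA1, the main E1 enzyme, was lower (log₂FC -0.54, SE 0.0616, adjusted p = 2.26e-07), but by library size only its change was -0.06 and was not called.

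Since PSMB8, PSMB9, PSMB10, PSME1 and PSME2 are known interferon targets, genes of interferon signaling and of MHC class I antigen presentation were set beside them. Of 16 tested, 3 were higher and 12 lower, beside 40.9% and 38.7% of all genes. The median log₂FC of the 16 was -0.86, beside 0.04 for all genes. Scaled by library size only, 5 were higher and 10 lower (62.9% and 22.7% of all genes), with a median of -0.38. ERAP1, which trims the peptides, was at 19.7, 16.1 and 18.5 CPM in the control libraries and 3.86, 4.58 and 3.58 CPM in the ATRA libraries. It fell in every ATRA library (log₂FC -2.17, SE 0.120, adjusted p = 6.42e-12), as did CALR (-1.72), which loads them. NLRC5, an activator of class I genes, was among the 3 that were higher, with 5, 0 and 3 counts in the control libraries and 190, 121 and 102 in the ATRA libraries (log₂FC 5.20, a value that rests on these few control counts).

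Among the protein-coding genes of the goat RefSeq annotation (ARS1.2), PSMB9, TAP1, PSMB8 and TAP2 are consecutive, and PSME1, EMC9, PSME2, RNF31 and IRF9 are consecutive as well. TAP1 and TAP2 encode the peptide transporter. The log₂FC in the first cluster was -2.07, -0.33, -2.72 and -1.43 in that order, and in the second -1.39, 0.26, -1.03, 0.54 and -1.25. All 4 genes of the first cluster were lower, by unequal amounts (TAP1 was 0.15 by library size only), while EMC9 and RNF31 were higher between and beside the lower genes of the second. PSME1 overlaps EMC9, PSMC1 overlaps NRDE2 (-0.47) and ADRM1 overlaps LOC108637403 (0.83), and since the strand setting of the counting is not known, reads in the overlaps may be assigned to either gene. Clusters and genes outside the lists were examined after the values were seen.

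**Figure D5:**
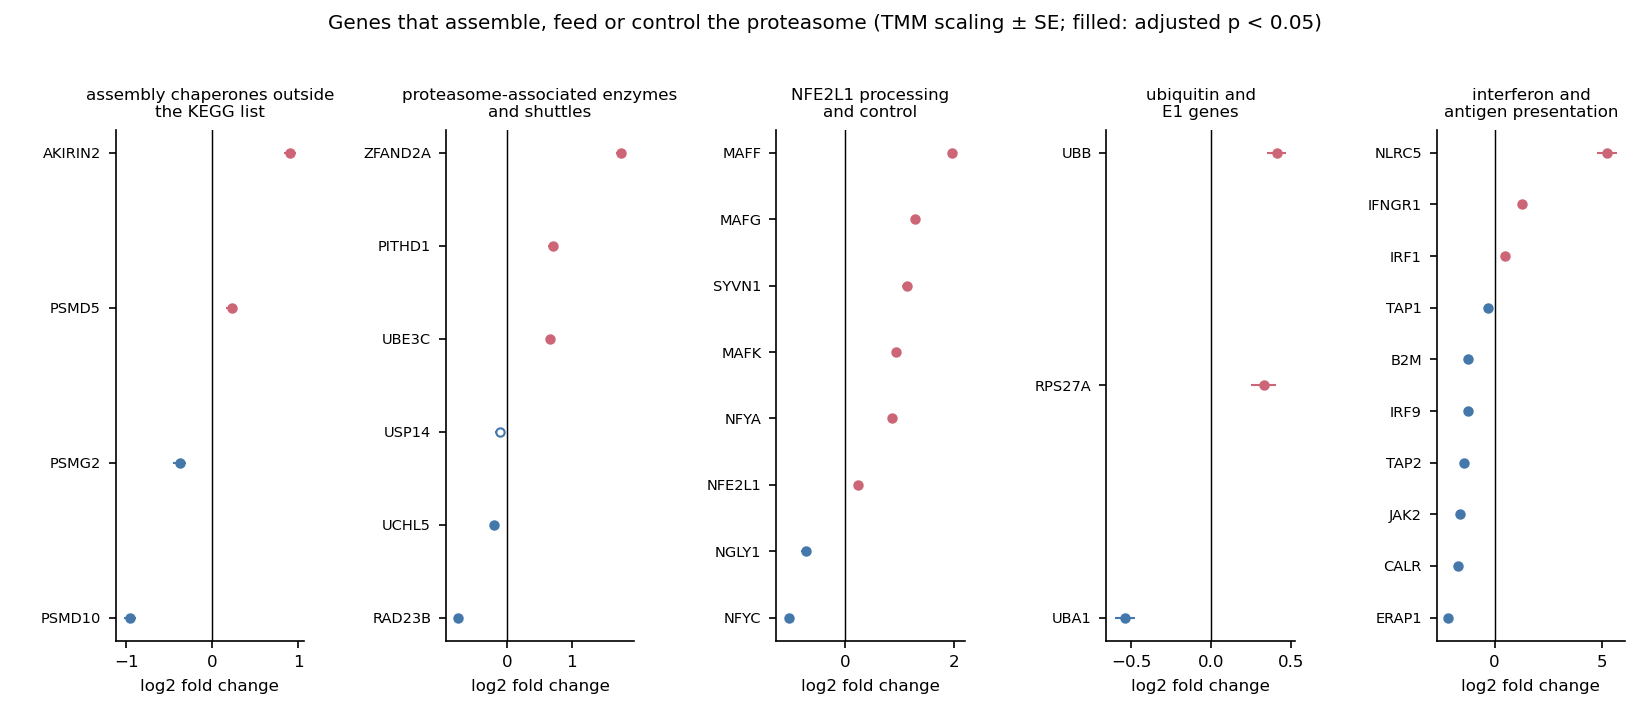
Genes that assemble, feed or control the proteasome, in 5 lists, for those list members that are named in the text. The x axis of each panel is the log₂ fold change of ATRA over control by TMM ± SE, filled where adjusted p < 0.05, with red for higher and blue for lower, and scales differ between panels. In the interferon and antigen presentation panel ERAP1 (-2.17) is the lowest and NLRC5 (5.20) the highest, and in the ubiquitin panel UBA1 (-0.54) is the only one that is lower.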

How the data were processed

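The authors extracted total RNA from the cultured cells, enriched mRNA with oligo(dT) beads and quality-filtered the reads by fastp and TrimGalore. The deposited table gives, per gene, a whole-number read count for each library beside GO and KEGG annotation. The submitters' processing notes name HISAT2, featureCounts and DESeq2 without a role or version. The genome build, the annotation, the strand setting and the handling of reads shared by several genes are not given in the sources used here, so no coordinates or sequences are given. Gene names were matched to RefSeq (ARS1.2), which was used for names and gene order only, and all 15944 matched.

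The expression filter of edgeR left 12588 genes. TMM scaling was followed by the robust, two-sided quasi-likelihood test of edgeR on all 6 libraries with no covariate, and p-values were adjusted by Benjamini-Hochberg over these genes. A prior count of 0.125 entered each log₂FC, and dividing its absolute value by the square root of F gave the SE. The CPM uses the total over the tested genes times the TMM factor. Summed levels and count ratios (0.5 added to each count) were compared by exact permutation tests over libraries, two-sided. The t.test function of R, named in the study's methods, served as an alternative here because the values are counts. Other alternatives were DESeq2, RLE, upper-quartile and library-size scaling, other filters and thresholds, other sums and added counts, a replicate block, and fits without each of the libraries. No pair of libraries within a group agreed within sampling noise (chi-square per degree of freedom 5.16 to 19.2).

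The pathway members and the lists of related genes and cell markers were chosen with earlier results of these data known. Every member is accounted for by role. Values in each library are given for the catalytic and immunoproteasome subunits, the activators, PSMF1, POMP and the members with the highest and the lowest log₂FC in the alpha ring, the noncatalytic beta ring, the base and the lid, and in the lists up to 4 genes with the largest |log₂FC| among those called are named, apart from genes not reported here. USP14, UCHL5, NFE2L1, MAFK, NFYA, NGLY1, TAP1, TAP2, IRF9, EMC9, RNF31, NRDE2 and LOC108637403 were named after their values were seen. Of the lists' symbols, ECPAS, DDI2, CIITA, PTPRC, CD79A, KRT15 and HHIP were not matched by name and were not analysed here. Software versions were edgeR 4.0.16, DESeq2 1.42.0 and limma 3.58.1 in R 4.3.3, with SciPy 1.17.1, pandas 2.3.3 and matplotlib 3.10.9 in Python 3.11.15.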

Additional observations from a re-analysis of the deposited data

How the results depend on the processing

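The scaling changed the results most. By library size only, 31 members were higher and 6 lower, 1 was higher and 2 were lower at |log₂FC| > 1, and the summed difference was 0.30 for the 20S core and 0.42 for the 19S cap (0.021 for the cap with upper-quartile scaling). The sign turned by library size only for PSMC2 (0.16), PSMC5 (0.35), PSMC4 (0.37), PSMD1 (0.24), PSMD4 (0.44), PSMD8 (0.29), PSMD14 (0.31), PSMD3 (0.33), PSMA6 (0.12), PSMA4 (0.13), PSMA2 (0.23), PSMA5 (0.37), PSMB6 (0.34), PSMB2 (0.072), PSMB1 (0.21), PSMB4 (0.21), PSME3 (0.13), PSMF1 (0.30) and POMP (0.29). With upper-quartile scaling, 12 members were higher and 18 lower, beside 5642 higher and 4505 lower of all 12588 genes tested. On that scale PSMD8, PSMD14, PSMD3, PSMF1 and POMP lost their call and PSMD2, PSMD6 and PSMA3 were called higher. R's t.test function called 5 members higher and 17 lower, and 10 members lost their call (PSMC1, ADRM1, PSMD8, PSMD14, PSMD3, PSMA8, PSMA2, PSMB7, PSMB4 and PSMB3). With |log₂FC| > 0.5 as the threshold, 1 member was higher and 9 were lower. For this threshold and for R's t.test function no shares over all genes are given. These counts are therefore read only as a measure of how the calls moved. Leaving out each library in turn left 237 single-gene results on the same side of the threshold, moved 9 (4 members) past it and 12 (8 members) short of it, with 7 to 11 members higher and 20 to 25 lower. The 5 count ratios kept their sign under the added counts and the libraries left out that were run. With the replicate block, 42 of 43 members kept their side of the threshold, 8 were higher and 23 lower, and PSMB3 was not called (0.19, adjusted p = 0.0521). Libraries of the same number did not deviate together (r = 0.0892, 0.0299 and -0.0764 across genes, which are not independent replicates), and no source says that the numbers pair the samples. PSMB9 had 8 to 45 counts in a library, so counting error weighs more on it than on the other members tested.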

Other observations

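Endothelial and keratinocyte markers were examined beside the members. Of 5 endothelial markers, 3 passed the expression filter, and of these 2 were higher and 0 lower (40.9% and 38.7% of all genes). PECAM1, an endothelial marker, had no counts in the control libraries and was at 5.60, 7.71 and 4.98 CPM in the ATRA libraries, while the endothelial marker CDH5 was at most 0.0227 CPM in every library. TEK was also higher (log₂FC 0.87, adjusted p = 0.0122), VWF was not called (0.06, adjusted p = 0.909), and KDR, below the filter, was at 0.161 to 0.311 CPM in the control libraries against 0 to 0.0463 CPM with ATRA. No keratinocyte marker that was matched passed the expression filter, and their summed level was 0.405 to 0.711 CPM in the control libraries and 0.0967 to 0.139 CPM in the ATRA libraries. Among interferon genes not described with the members, JAK2 (log₂FC -1.61) and B2M (-1.23) were lower with ATRA, and IRF1 (0.49) and IFNGR1 (1.28) were higher. Their values were seen before they were picked.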
